A study of Physcomitrium patens with 12 samples.

Results

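The archegonium-enriched set of wild type in the moss Physcomitrium patens held 50 genes of the 32926 in the deposited count table, chosen by their levels in the wild type libraries. An archegonium is the flask-shaped female organ that holds the egg, and an antheridium is the male organ in which swimming sperm form. A gene was taken when its mean in wild type archegonia was at least 5 CPM (the gene's count scaled to 1000000 counts in the library) and its log2 ratio of archegonia over antheridia was at least 3, each mean being raised by 1 CPM. The rule allowed up to 150 genes, and 50 met it. With the organs exchanged, the same rule was met by 573 genes, of which the 150 with the highest ratio served as antheridium-enriched genes for comparison.

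RNA-seq libraries were made from mature organs of strain Gransden on day 18 of sporophyte induction, each from 8 pooled antheridia or 8 pooled archegonia. The 4 groups of 3 libraries were wild type archegonia, wild type antheridia, archegonia of the PpPINC mutant line pinC#29 and antheridia of that line. Because pinC#29 is 1 line, what the mutation did and what else sets this line apart cannot be told apart. The labels call the 3 libraries of a group biological replicates, and organs were collected on 3 occasions, without stating which library came from which. The p-values measure variation among these libraries.

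In mosses both organs arise at the shoot tip of the leafy haploid plant. The archegonium has a venter around the egg and a neck whose inner cells break down when it opens, and the antheridium has a jacket around its sperm cells. PIN proteins are membrane carriers that move auxin, a plant hormone, out of the cell. Neither the files nor the reference gave names for the identifiers. Genes are therefore listed by identifier without a function, sequences are not shown, and neither the targeted gene nor known egg or sperm markers could be looked up. A bulk library cannot tell fewer cells of a type from less RNA per cell. Reads of overlapping genes or near-identical copies may also be shared between identifiers.

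Total counts ranged from 19038033 to 39833129. Genes with at least 1 count numbered 21654 to 24802 in 9 libraries and 19088, 19803 and 20359 in mutant antheridia 2, mutant archegonia 3 and mutant antheridia 3, which were not the shallowest. These 3 libraries stood apart, and several values that rest on 1 of them are also given without it. The 150 antheridium-enriched genes took 2.41% to 11% of the counts of antheridium libraries and 0.0274% to 0.0738% of those of archegonium libraries. Of these 150 genes, 23, 8 and 102 had no count in mutant archegonia 1, 2 and 3.

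The 50 archegonium-enriched genes took 7.41%, 4.11% and 4.26% of all counts in wild type archegonia 1, 2 and 3. In mutant archegonia they took 2.96%, 2.97% and 2.52%. Both organs' groups are thus separate on this summed level, since wild type antheridia had 0.589%, 0.137% and 0.295% and mutant antheridia 0.119%, 0.155% and 0.183%. Wild type values chose the genes and are given as a description.

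**Figure D1:**
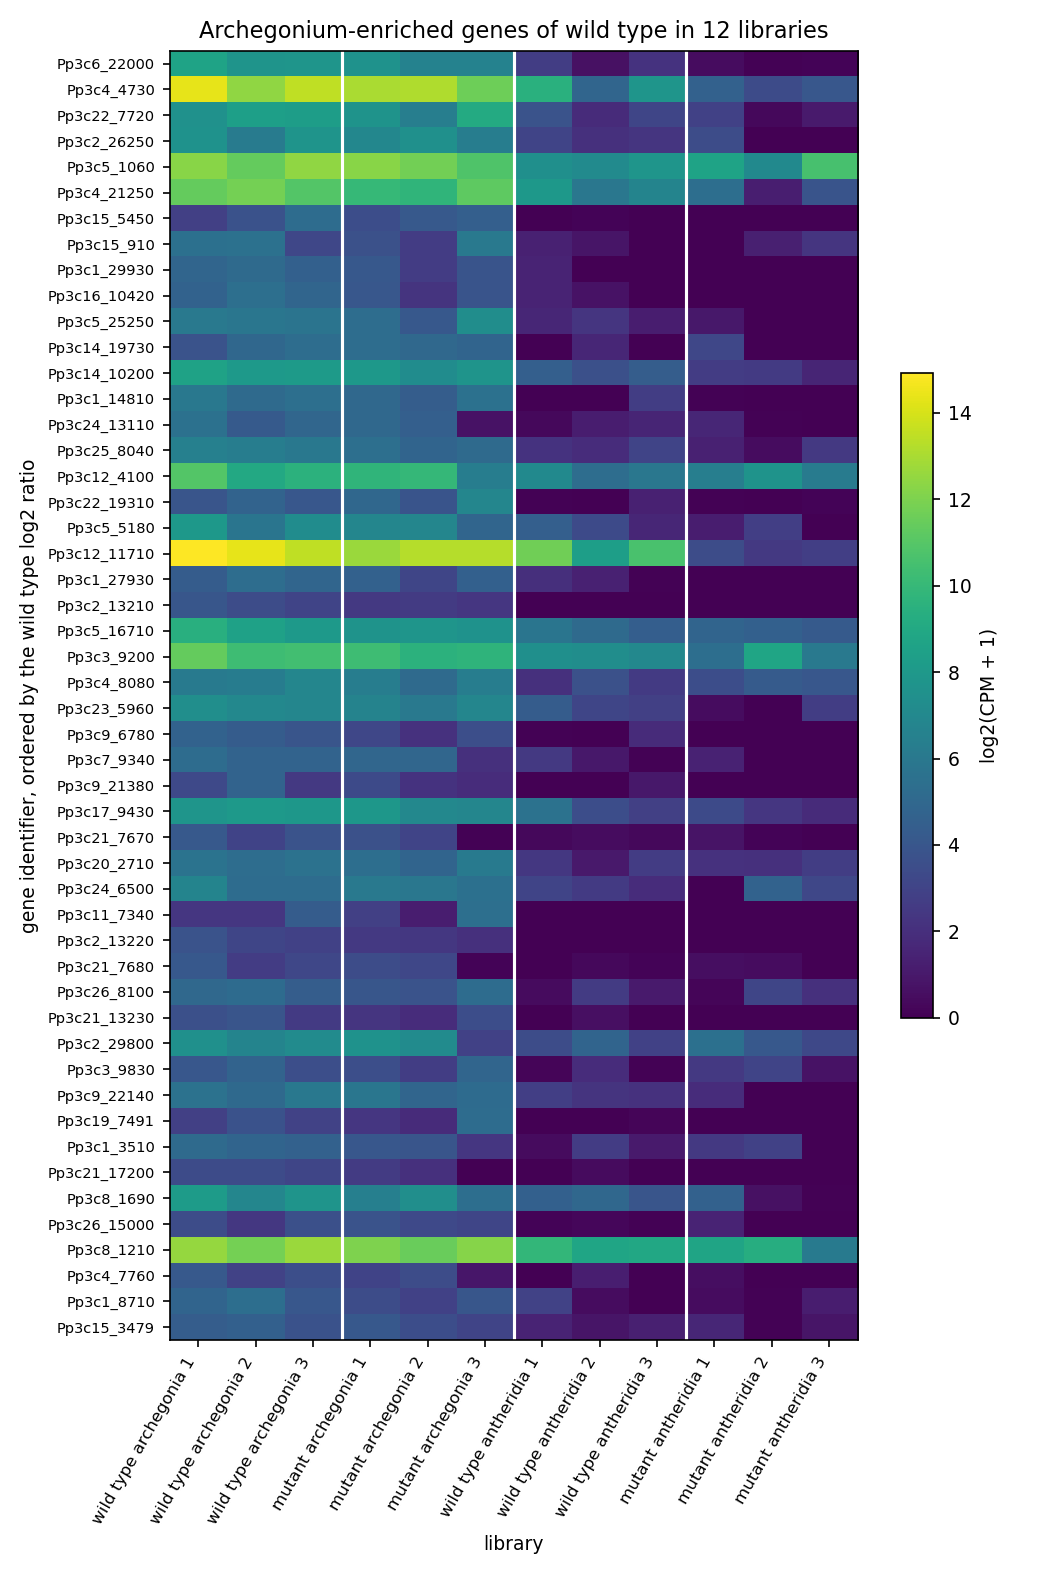
Levels of the 50 genes (rows, ordered by the wild type log2 ratio of archegonia over antheridia) in the 12 libraries (columns), as log2(CPM + 1). The 6 archegonium libraries on the left are bright for most genes, the 6 antheridium libraries on the right are dark, and mutant archegonia 3 is dark for a few genes such as Pp3c21_17200.

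Read numbers were very uneven within the set. Mean levels in wild type archegonia ran from 8.51 to 21259 CPM, with a median of 32.4 CPM. At least 1000 CPM was reached by 7 genes, and 16 were under 20 CPM. Gene lengths were not given, so these are shares of reads and not transcript levels compared between genes. Pp3c12_11710 took 3.11%, 2.09% and 1.18% of all counts in wild type archegonia 1, 2 and 3, and ranked 1, 1 and 3 by count among all genes there. Pp3c4_4730 took 2.08%, 0.565% and 1.16% in the same libraries. Together they made 64.5% of the set's reads in wild type archegonia, 55.4% in mutant archegonia, 59.9% in wild type antheridia and 1.53% in mutant antheridia. Without these genes, the rest of the set took 2.22%, 1.46% and 1.93% of all counts in wild type archegonia 1, 2 and 3. In mutant archegonia 1, 2 and 3 the rest took 1.47%, 1.08% and 1.22%, so that the genotypes overlapped.

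The wild type log2 ratio that chose the genes had a median of 3.49 and ran from 3.05 to 6.02. It was highest for Pp3c6_22000, with 401, 214 and 217 CPM in wild type archegonia against 5.62, 0.617 and 3.62 CPM in wild type antheridia. The next was Pp3c4_4730, at 5.32. Just inside the threshold stood Pp3c1_8710 at 3.08 and Pp3c15_3479 at 3.05, and just outside it Pp3c6_2090 at 2.9988 and Pp3c16_4240 at 2.98. A further 168 genes with at least 5 CPM had a ratio of 2 to 3. With 1 CPM added to each mean, a ratio of at least 3 cannot be reached under 5 CPM, so that minimum could leave no gene out.

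How much libraries of a group differed was described by the relative spread. This value, the SD divided by the mean over 3 libraries, had a median of 0.373 over the 50 genes and 0.226 over all 16285 tested genes with at least 5 CPM there. In mutant archegonia the medians were 0.483 and 0.383. The widest was Pp3c11_7340, with 4.06, 4.13 and 19.5 CPM in wild type archegonia 1, 2 and 3. Next was Pp3c15_5450, with 6.04, 12.6 and 38.3 CPM. Both were highest in wild type archegonia 3, but over the set wild type archegonia 1 was the highest library for 26 genes, wild type archegonia 2 for 15 and wild type archegonia 3 for 9.

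Mutant archegonia and antheridia were compared to ask how the set behaves between the organs of the PpPINC line, in 6 libraries that the rule had not used. Every one of the 50 genes was tested and had a higher fitted level in mutant archegonia, as did 54.0% of all genes tested. Of the 50 genes, 15 (30%) passed the threshold with higher levels in archegonia and 0 with higher levels in antheridia. Over all 22792 genes tested, 39 or 0.171% were called higher in archegonia and 583 or 2.56% higher in antheridia (edgeR quasi-likelihood test on the 6 mutant libraries, Benjamini-Hochberg adjusted p under 0.05). The set thus held 38.5% of the genes called higher in mutant archegonia.

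In 42 of the 50 genes each mutant archegonium library was above each mutant antheridium library, which held for 11.7% of all genes tested. The reverse order held for 0 of the 50 and for 8.94% of all genes tested. At an unadjusted p under 0.05, 43 of the 50 were higher in archegonia, against 3.60% of all genes tested. The median fitted log2 fold change of the set was 5.15, against 0.09 over all genes tested. With the 7 genes that had no count in mutant antheridia placed at their bound of 3 counts over the group, the median log2 ratio was 5.2, or 6.89 without mutant antheridia 1. For comparison, 133 of the 150 antheridium-enriched genes (88.7%) were called higher in mutant antheridia, with a median fitted log2 fold change of -8.73. That count was 19 without mutant archegonia 3 and 65 without mutant archegonia 1. These 150 genes had wild type log2 ratios of at least 4.78 with the organs exchanged, whereas those of the 50 genes reached down to 3.05. The sets are thus unlike in the ratio that chose them, and the share called in each was not tested for a difference.

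The number called changed when single libraries were left out, which also makes a group smaller. Without mutant archegonia 3 it was 3 of the 50 (0.0132% of all genes), and without mutant archegonia 1 it was 7 (0.0483%). Without any other single mutant library it was between 10 and 16, where 0.0965% to 0.272% of all genes were called. The set's median fitted log2 fold change was 5.4 without mutant archegonia 3 and 5.01 without mutant archegonia 1, against 5.15 with all mutant libraries. The DESeq2 Wald test called 32 of the 50, where 1.10% of all genes were called higher in archegonia, and a single edgeR fit of all 12 libraries called 36, where 1.33% were. The authors' deposited table of this comparison called 30 of the 50 lower in mutant antheridia and 0 higher, where 1.30% of its genes with an adjusted p were lower, and 1 of the 50 had no adjusted p.

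Pp3c12_11710 had 6541, 9950.1 and 9800.3 CPM in mutant archegonia 1, 2 and 3 and 10.1, 4.52 and 5.77 CPM in mutant antheridia 1, 2 and 3. The groups were far apart, and no library of either organ came near the other organ. The ratio of means was 1286 and the log2 fold change 10.18 ± 1.26 (SE; edgeR adjusted p = 0.00586). In the authors' deposited table it had the log2 fold change -9.89 for antheridia against archegonia. Without mutant archegonia 3 its edgeR adjusted p was 0.0516, at a log2 fold change of 10.09.

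Pp3c4_4730 had 8372, 8956 and 3202 CPM in mutant archegonia and 24.0, 9.62 and 15.7 CPM in mutant antheridia. Mutant archegonia 3 was the lowest of its group and still far above the antheridia. The log2 fold change was 8.54 ± 1.18 (SE; edgeR adjusted p = 0.00832), and without mutant archegonia 3 the edgeR adjusted p was 0.0532, at 8.88.

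Pp3c6_22000, the gene with the highest wild type ratio, had 196, 95.3 and 96.0 CPM in mutant archegonia and 0.437, 0.0785 and 0.1 CPM in mutant antheridia, from 10, 2 and 4 counts. Its log2 fold change was 9.19 ± 0.82 (SE; edgeR adjusted p = 0.00242). The ratio of means, 628, became 1442 without mutant antheridia 1, which held most of those counts. Pp3c6_22000 was called in each of the 16 alternative fits, and so was Pp3c14_10200, a gene chosen after its values were seen. Pp3c14_10200 had 245, 152 and 214 CPM in mutant archegonia and 5.34, 4.71 and 1.88 CPM in mutant antheridia, and its log2 fold change was 5.5 ± 0.59 (SE; edgeR adjusted p = 0.00369).

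**Figure D2:**
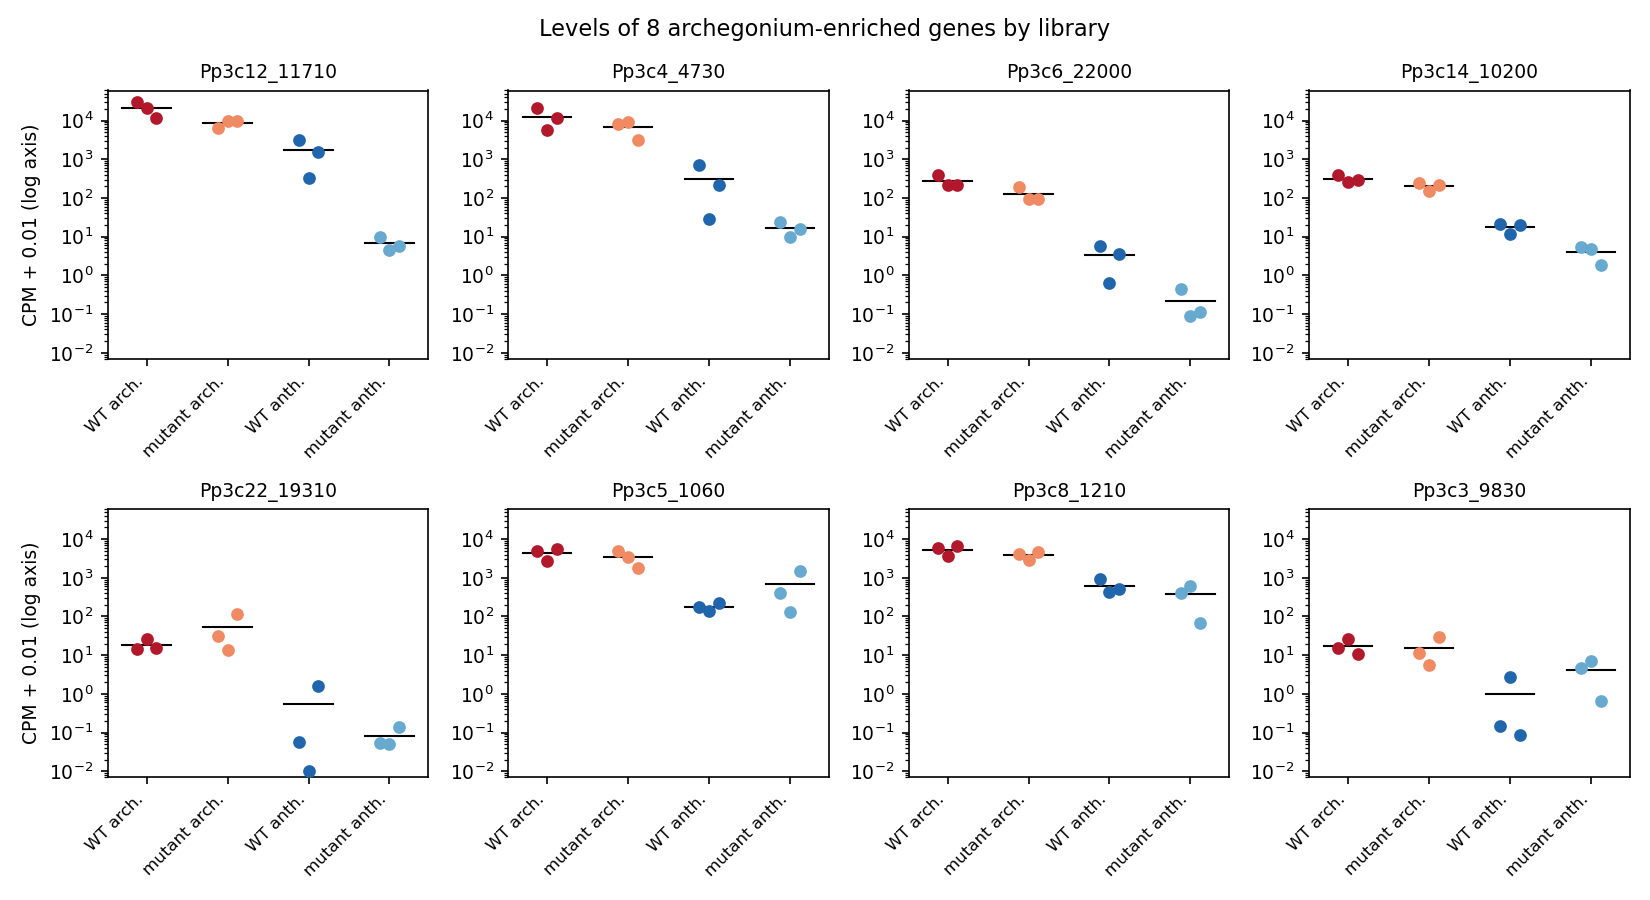
CPM + 0.01 on a log axis for 8 of the 50 genes, Pp3c14_10200 and Pp3c8_1210 having been chosen after their values were seen. Points are libraries in the order of replicates 1 to 3 and lines are group means. Pp3c12_11710 sits at 6541 to 9950.1 CPM in mutant archegonia and at 4.52 to 10.1 CPM in mutant antheridia, while Pp3c5_1060 reaches 1507 CPM in mutant antheridia 3.

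At the high end of the fitted change stood genes with no count in mutant antheridia, for which the fitted size is not a bound. Pp3c11_7340 had 6.2, 1.25 and 42.5 CPM in mutant archegonia and no count in the 6 antheridium libraries of both genotypes. It was at least 489-fold higher in mutant archegonia against 3 counts over the group, or at least 109-fold without mutant archegonia 3 and 268-fold without mutant antheridia 3, and was not called (edgeR adjusted p = 0.105). Pp3c19_7491 had 4.04, 2.54 and 38.0 CPM in mutant archegonia, at least 437-fold above mutant antheridia, or 96.7-fold without mutant archegonia 3 and 239.6-fold without mutant antheridia 3 (edgeR adjusted p = 0.0986). Both genes were highest in mutant archegonia 3. Pp3c15_5450, with 10.7, 17.3 and 21.9 CPM in mutant archegonia and a single count in mutant antheridia 3, was called (edgeR adjusted p = 0.0270). Its pooled ratio was 1545, with a counting interval at the 95% level of 277 to 61039, or at least 268 without mutant antheridia 3. Its call was lost, at edgeR adjusted p of 0.0570 to 0.130, when any 1 mutant archegonium library or mutant antheridia 3 was left out.

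Organ differences were smallest in the mutant for Pp3c1_3510 and Pp3c3_9830. Pp3c1_3510 had 15.9, 14.3 and 4.17 CPM in mutant archegonia and 4.64, 6.48 and 0.0251 CPM in mutant antheridia, so that the groups overlapped. The log2 fold change was 1.44 ± 1.24 (SE; edgeR adjusted p = 0.732). Pp3c3_9830 had 11.2, 5.58 and 28.7 CPM in mutant archegonia and 4.59, 7.19 and 0.628 CPM in mutant antheridia, which also overlapped. Its log2 fold change was 1.70 ± 1.03 (SE; edgeR adjusted p = 0.548), or 0.80 without mutant archegonia 3.

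The calls in the mutant were set beside the wild type ratio as a description, without a test between bins, of which the upper bins hold few genes. All 3 genes with a wild type log2 ratio of at least 5 were called higher in mutant archegonia, 6 of 11 genes between 4 and 5, and 6 of 36 between 3 and 4. The bins hold tested genes with at least 5 CPM in wild type archegonia. Below the threshold of the rule, 15 of 168 genes between 2 and 3 were called (8.93%). So were 6 of 1352 between 1 and 2 (0.444%) and 3 of 8375 between 0 and 1 (0.0358%), against 0 of 6340 below 0. The median fitted log2 fold change in the mutant was 8.54, 6.13, 4.54, 2.48, 0.67, 0.25 and -0.16 over these bins in the same order. Across the 50 genes, which are not independent and share their libraries, the wild type and mutant log2 ratios were related with Spearman's rho 0.547 and Pearson's r 0.576. With 1 CPM added to each mean, a gene's archegonium level limits both ratios, and so also its bin. The part of level in this relation and in the calls by bin was not tested. The mutant ratio on the scale of the rule had a median of 3.37, was at least 3 in 30 genes and exceeded the wild type ratio in 20.

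**Figure D3:**
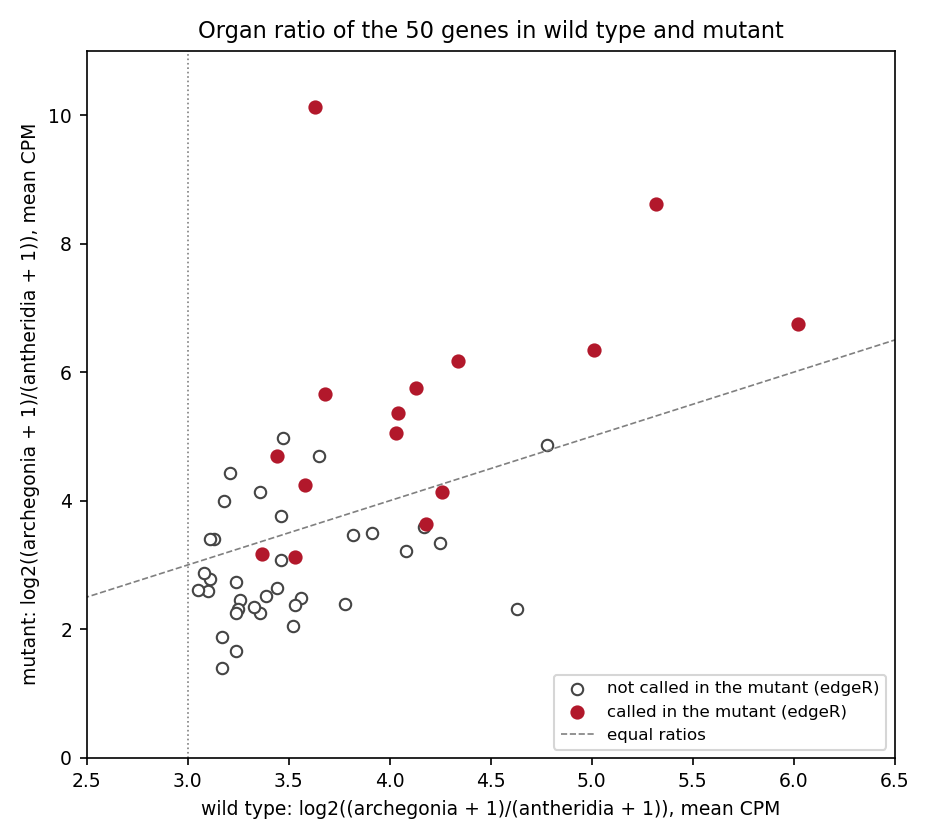
For each of the 50 genes, the log2 ratio of archegonia over antheridia in wild type (horizontal axis, the value that chose the genes) and in the mutant (vertical axis), each mean CPM being raised by 1. Filled points are the 15 genes called in the mutant, the dashed line marks equal ratios and the dotted line the threshold of 3. The highest point, at 10.13 in the mutant, is Pp3c12_11710.

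The same rule applied to mutant libraries in place of wild type gave 126 genes. The 50 genes included 30 of them, which is 60% of the wild type set and 23.8% of the mutant set. The other 20 genes had a mutant ratio under 3, the lowest being 1.40 for Pp3c1_3510. The added 1 CPM keeps this ratio low for genes with few reads, so a ratio under 3 need not mean a lost organ difference. Pp3c2_13210, Pp3c2_13220, Pp3c9_21380 and Pp3c21_13230, named after their values were seen, had no count in mutant antheridia. Their mutant ratios were 2.49, 2.34, 2.64 and 2.74.

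How far the genes remained in antheridia was measured as the level in each antheridium library in percent of the mean in archegonia of the same genotype. The rule bounded this share in wild type but not in the mutant. Over the 50 genes the median share was 4.60%, 3.38% and 2.64% in wild type antheridia 1, 2 and 3. In mutant antheridia 1, 2 and 3 it was 2.76%, 0.166% and 0.217%. Mutant antheridia 1 lay within the range of the wild type libraries, and the other mutant libraries were lower than all of them. Mutant antheridia 2 and 3 are also the libraries with fewer detected genes, and the part of that in the lower shares was not tested.

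Shares differed widely between genes of a library. The quartiles of the 50 genes were 0.238% and 10.1% in wild type antheridia 1 and 0% and 11.2% in mutant antheridia 1. Genes with no count numbered 12, 7 and 12 in wild type antheridia 1, 2 and 3 and 14, 15 and 17 in mutant antheridia 1, 2 and 3. In group means, 5 of the 50 genes were under 1% in wild type antheridia and 19 in mutant antheridia. At the other end, 9 genes were over 12.5% in mutant antheridia, a level that the rule allowed no gene to pass in wild type. The median of the shares of group means was 4.25% in wild type and 2.72% in the mutant, or 0.308% without mutant antheridia 1. The share in the mutant was lower than in wild type for 29 genes, higher for 19 and equal for 2.

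**Figure D4:**
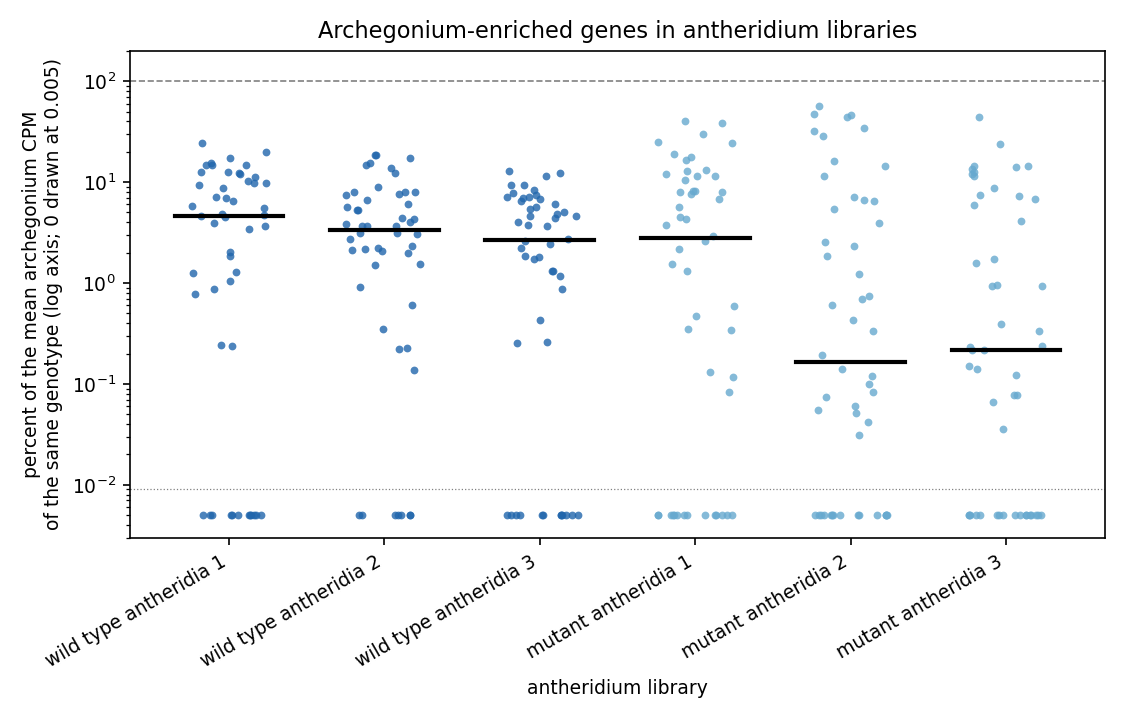
Level of each of the 50 genes in the 6 antheridium libraries, in percent of its mean CPM in archegonia of the same genotype, on a log axis with genes at 0 drawn at 0.005 under the dotted line. Black lines are medians, at 4.60%, 3.38% and 2.64% in wild type and 2.76%, 0.166% and 0.217% in the mutant, and the dashed line marks 100%.

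At least 5 CPM was reached in every wild type antheridium library by 13 of the 50 genes and in every mutant antheridium library by 8. These lists shared 7 genes, 53.8% of the first and 87.5% of the second. One of the shared genes was Pp3c8_1210, chosen after its values were seen because it had the highest share in wild type antheridia, 11.6% of the archegonium mean. It had 935, 431 and 503 CPM in wild type antheridia and 417, 629 and 68.4 CPM in mutant antheridia. The mutant libraries spread more widely, and mutant antheridia 3 was the lowest of the 6. In mutant archegonia it had 4162, 2965 and 4659 CPM.

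The highest shares in mutant antheridia belonged to Pp3c1_3510 at 32.4% and Pp3c3_9830 at 27.2%, whose mutant levels are given above. In wild type antheridia Pp3c1_3510 had 0.365, 5.25 and 1.14 CPM, a share of 7.96%, or 2.66% without wild type antheridia 2. The mutant share of Pp3c1_3510 was 20.4% without mutant antheridia 2, 48.6% without mutant antheridia 3 and 24.6% without mutant archegonia 3. Pp3c3_9830 had 0.137, 2.70 and 0.0761 CPM in wild type antheridia, a share of 5.53%, or 0.607% without wild type antheridia 2. Its mutant share was 17.2% without mutant antheridia 2 and 49.2% without mutant archegonia 3. The mutant antheridium mean of Pp3c3_9830 was 4.26 times that of wild type, or 38.8 times without wild type antheridia 2 and 2.69 times without mutant antheridia 2, and the groups overlapped.

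Mutant and wild type antheridia, like mutant and wild type archegonia below, were set side by side without a test, because the rule had taken genes for low wild type antheridia and high wild type archegonia. In antheridia the median log2 ratio of mutant over wild type, with 1 CPM added to each mean, was -0.37 over the 50 genes and -0.08 over all genes tested. It was below 0 for 33 genes and above 0 for 15, and it was below 0 for 54.9% of all genes tested. In 9 of the 50 genes every mutant antheridium library was below every wild type one, where this held for 7.63% of all genes tested, and in 0 genes was it the reverse, where 2.92% of all genes were.

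Pp3c12_11710 had 3247, 329.8 and 1588 CPM in wild type antheridia against 10.1, 4.52 and 5.77 CPM in the mutant. The lowest wild type library was more than 30 times the highest mutant one. The ratio of means was 253, or 141 without wild type antheridia 1. Its share of the archegonium level was 8.10% in wild type, or 4.51% without wild type antheridia 1, and 0.0777% in the mutant. Pp3c4_4730 varied the same way among wild type antheridia, with 704, 28.6 and 219 CPM, against 24.0, 9.62 and 15.7 CPM in the mutant. All mutant libraries were below all wild type libraries, with little gap to wild type antheridia 2. Its ratio of means was 19.3, or 7.51 without wild type antheridia 1.

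Pp3c5_1060 had the highest log2 ratio of mutant over wild type antheridia with 1 CPM added to each mean, 1.92. It had 175, 138 and 223 CPM in wild type antheridia and 403, 133 and 1507 CPM in mutant antheridia. The groups overlapped, since mutant antheridia 2 was below all wild type libraries, and the ratio of mutant over wild type means without an added CPM, 3.81, became 1.5 without mutant antheridia 3. In archegonia Pp3c5_1060 had 4951, 2748 and 5608 CPM in wild type and 4983, 3414 and 1804 CPM in the mutant, and the difference between mutant organs was not called (edgeR adjusted p = 0.391).

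In archegonia the median log2 ratio of mutant over wild type was -0.64 over the 50 genes and -0.04 over all genes tested. The mutant mean was lower for 43 genes and higher for 7, where it was lower for 54.3% of all genes tested. Of the 50 genes, 36 were within 1 log2 unit. Every mutant archegonium library was below every wild type one in 15 genes, where this held for 5.85% of all genes tested, and above in 0 genes, where 2.54% of all genes were. A choice of genes for high wild type archegonia tilts this comparison toward lower mutant values, by an amount that was not measured. The authors' deposited table for archegonia called 0 of the 50 genes and 12 of 18049 genes in all, and 1 of the 50 had no adjusted p there. The authors' deposited table for antheridia called 1 of the 50, Pp3c12_11710, and 15 of 20989 genes in all. For antheridia 19 of the 50 genes had no adjusted p there and could not be called.

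Pp3c16_10420 and Pp3c21_17200 had the lowest ratios in archegonia. Pp3c16_10420 had 25, 42.3 and 28.2 CPM in wild type and 15.5, 3.75 and 13.8 CPM in mutant archegonia, with no overlap and a 2.89-fold higher wild type mean. Its 3 mutant antheridium libraries had no count. Pp3c21_17200 had 9.81, 9.65 and 7.61 CPM in wild type and 4.94, 3.20 and 0 CPM in mutant archegonia, a 3.33-fold higher wild type mean, or 2.22-fold without mutant archegonia 3. The highest ratio was that of Pp3c22_19310, with 14.5, 26.1 and 15.4 CPM in wild type and 30.6, 13.8 and 114 CPM in mutant archegonia, which overlapped. Its mutant mean was 2.83-fold higher, or 1.19-fold without mutant archegonia 3. Between mutant organs Pp3c22_19310 was called, with a fitted log2 change of 9.15 ± 1.12 (SE; edgeR adjusted p = 0.00319), with 1, 1 and 5 counts in mutant antheridia. Next came Pp3c11_7340, whose mutant archegonium mean was 1.80 times that of wild type, or 0.403 times without mutant archegonia 3 and 4.06 times without wild type archegonia 3.

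**Figure D5:**
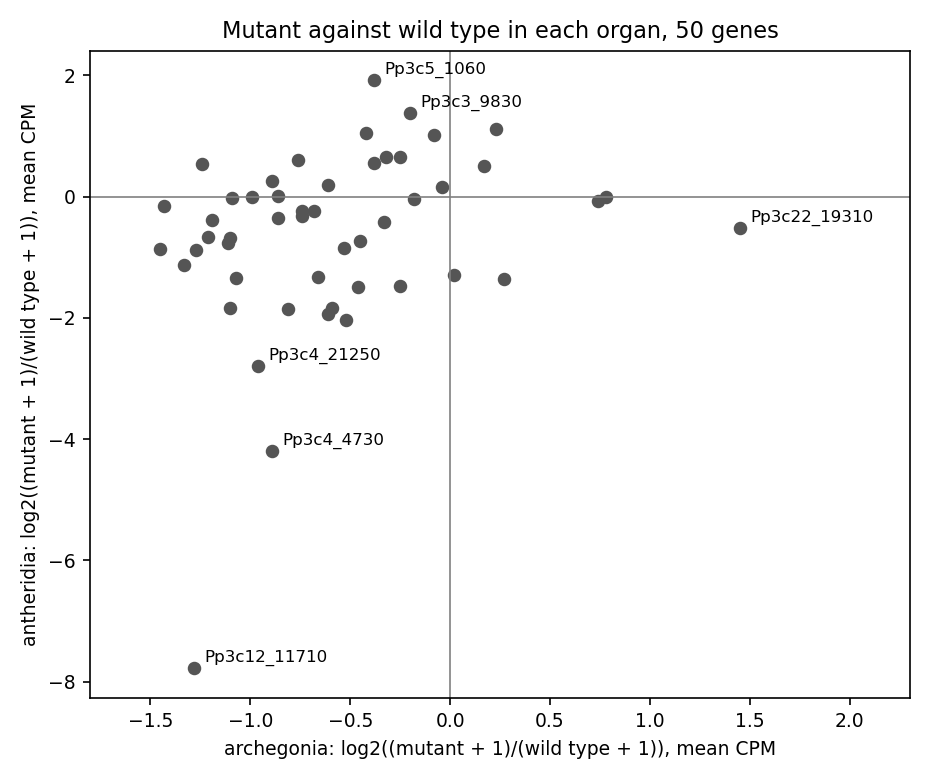
For each of the 50 genes, the log2 ratio of mutant over wild type in archegonia (horizontal axis) and in antheridia (vertical axis), with 1 CPM added to each mean. Most points lie left of 0 in archegonia, where the median is -0.64, and Pp3c12_11710 lies lowest in antheridia, at -7.78.

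Mutant archegonia 3 departed from its group gene by gene. It was under 10% of the mean of the other mutant archegonia for 6 of the 50 genes and over 3 times that mean for 8. In the other archegonium libraries of both genotypes at most 1 gene was under 10% and at most 2 were over 3 times. Pp3c19_7491 and Pp3c22_19310 were among the 8 that were high there, and Pp3c21_17200 among the 6 that were low.

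The identifiers of the 50 genes carried 23 of the 27 numbered chromosome prefixes, with at most 5 genes on 1 prefix, Pp3c1. In the order of identifiers, 4 of the 50 genes (8.00%) stood next to another gene of the set. This held for 8.00% of the 150 antheridium-enriched genes and for 16.4% of the 573 that met the exchanged rule. The share depends on how many genes a list holds, so these values do not compare how closely the sets are grouped. The pairs, named after they were seen, were Pp3c2_13210 with Pp3c2_13220 and Pp3c21_7670 with Pp3c21_7680. Pp3c2_13210 had 15.2, 10.1 and 7.49 CPM in wild type archegonia, and Pp3c2_13220 had 13.3, 7.67 and 6.25 CPM. In mutant archegonia they had 4.62, 5 and 4.23 CPM and 4.57, 4.45 and 3.14 CPM, and neither had a count in mutant antheridia. Within each pair the levels thus ran alike over the libraries, and whether they share reads was not tested.

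Both genes of the other pair had their lowest archegonium level in mutant archegonia 3. Pp3c21_7670 had 11.8, 7.34 and 0.0646 CPM in mutant archegonia 1, 2 and 3, and Pp3c21_7680 had 10.2, 8.01 and 0.0970 CPM. Identifiers beside the 50 genes that were not in the set gave 74 tested genes. Of these, 1 was called higher in mutant archegonia and 1 higher in mutant antheridia, where 0.171% and 2.56% of all genes tested were. The median fitted log2 fold change of the 74 genes in the mutant was 0.29, against 5.15 for the set and 0.09 for all genes.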

How the data were processed

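The authors deposited read counts per gene for the 12 libraries and DESeq2 tables holding log2 fold changes with raw and adjusted p-values, 4 of which were used. Per the labels' protocols, organs were picked into TRIzol and cDNA was made by Smart-seq2, which marks neither strand nor molecules. The submitters' processing notes list Trim Galore 0.6.6, cutadapt 2.10, HISAT2 2.1.0 and DESeq2 2.11.40.6. The name of the deposited count matrix reads feature counts, filtered after a count of the CDS (coding sequence) feature. A version of the counter, the genome build and the annotation were not given in the sources used here. In each table used, every called gene had the sign of the counts.

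CPM were counts divided by the column sum. The genes were chosen by CPM of the wild type libraries, so the test was fitted to the 6 mutant libraries: edgeR 4.0.16 under R 4.3.3, quasi-likelihood F test (TMM, robust, non-legacy fit), on genes kept by filterByExpr over all 4 groups, which all 50 passed. The SE was taken as the size of the log2 fold change over the root of F. The fit was first tested on simulated data. There it called 0% of 100 genes set 4-fold apart, 48% of 100 set 16-fold apart and 0.031% of unchanged genes. A gene that was not called may therefore still differ between the organs. limma 3.58.1 and DESeq2 1.42.0 served as alternatives.

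The genes, lists and tests were chosen with earlier results of these data known. For each quantity at most 2 genes at either end were named; others are said to be chosen after their values were seen. Of 27567 genes in the RefSeq table of assembly ASM5946719v1, 0 matched the identifiers, so planned product families and markers were not counted. A count of 0 allows up to 3 counts, 0.0753 to 0.158 CPM in 1 library; these limits, like the intervals, reflect counting error alone.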

Additional observations from a re-analysis of the deposited data

How the results depend on the processing

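The 15 genes called higher in mutant archegonia became 36 in one edgeR fit of all 12 libraries and 32 with the DESeq2 Wald test, both including all 15, and 3 to 16 with single mutant libraries left out. With the replicate number as a block it was 5 (7 genes in all, 0.0307%). Deviations of same-numbered mutant libraries from their group means correlated at 0.106, -0.146 and 0.0795, and only library 1 correlated best with its own number. With so few libraries these values cannot decide whether equal numbers share an occasion, which the labels do not state. No fit called a gene of the set higher in antheridia; the count of 15 became 16 without a low-count filter and also without scaling factors, which moved the median log2 fold change of all genes from 0.09 to 0.27. Leaving out mutant antheridia 2 and 3 and mutant archegonia 3, which had the fewest detected genes, a single fit (chosen after seeing the data) called 17 genes, 9 of them among the 15 and with 0.715% of all genes called, and the lone mutant antheridium library is there assumed to vary like the other groups. Limma-voom called 19 (9 of the 15; 0.404% of all genes) and moved the median log2 fold change from 5.15 to 6.52, and that of all genes from 0.09 to 0.30. With single libraries left out, that median ran from 4.68 to 8.13, the highest without mutant antheridia 1. The 133 antheridium-enriched genes called became 74 with the legacy edgeR fit and 19 to 130 with single libraries left out. The median share left in mutant antheridia, 2.72%, ran from 0.308% to 3.79% with single libraries left out, and that of wild type from 3.91% to 4.89%. Without 1 wild type library 50 to 74 genes met the rule, 43 to 47 of the 50 among them. The cause of these changes was not tested.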

Other observations

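Outside the set, 24 genes were called higher in mutant archegonia than in mutant antheridia (edgeR adjusted p under 0.05), all with at least 5 CPM in wild type archegonia. Their wild type log2 ratio ran from 0.08 to 2.81 with a median of 2.17, and 15 of the 24 were between 2 and 3. Their median level in antheridia was 20.3% of that in archegonia in wild type and 4.12% in the mutant. Pp3c3_11110 had the smallest adjusted p among them, at 150.5 ± 49.3 CPM (SD, n = 3) in archegonia and 5.15 ± 2.5 CPM in antheridia of the mutant. Its fitted log2 change was 4.69 ± 0.58 (SE; edgeR adjusted p = 0.00586). Its wild type means were 287 ± 90.2 CPM in archegonia and 74.5 ± 14.8 CPM in antheridia. Pp3c21_8410, chosen after its values were seen as the gene with the lowest wild type ratio of the 24, stood at 7.75 ± 1.35 CPM in archegonia and 7.27 ± 2.55 CPM in antheridia of wild type. In the mutant it had 7.48 ± 1.19 CPM in archegonia and 0.139 ± 0.0828 CPM in antheridia, with a fitted log2 change of 5.45 ± 1.08 (SE; edgeR adjusted p = 0.0204). These genes were chosen by the mutant comparison, so their mutant values are a description.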
